A study of Mus musculus with 18 samples.

Results

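The measure described here is the ratio of immunoprecipitated (IP) to input RNA, compared between the brains of tumor-bearing and control mice for every gene. It rests on 12 of the 18 libraries of the series, which form 6 pairs: 3 control pairs and 3 tumor pairs, each an input and an IP library with the same replicate number. All mice carried Camk2a-Cre and Rpl22HA, controls included. Control mice had no tumor, and tumor mice had glioma cells implanted in the cortex. The remaining 6 libraries come from tumor mice given AZD8055, an inhibitor of the mTOR kinase, and enter only as values set side by side. The library names put all control and tumor input in a set named PD013, all control and tumor IP in PD015 and all AZD8055 libraries in PD028, so that the step from PD013 to PD015 was the same in control and tumor pairs. The sources used here do not give age, the glioma line, the time after implantation or whether the implanted cells could carry the tag. Nor do they tie a replicate number to its own animal. The p-values therefore rest on the spread of these pairs, which can be technical in part, and on variance shared across genes.

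Rpl22 is a protein of the large ribosomal subunit. In this mouse, often called RiboTag, Cre switches the gene to a form with an HA epitope, and antibody against HA then pulls down ribosomes with the messages they carry. Camk2a-Cre is active mainly in excitatory neurons of the forebrain, so that the IP is meant to hold messages on neuronal ribosomes, and the input holds the RNA of all cells. A gene with a log2 IP/input of 0 took the same share of both libraries, and a positive value means a larger share in the IP. The comparison asks whether that ratio was different with a tumor present. A rise or fall by the same factor in input and IP leaves the ratio as it was, while a change in only the input or only the IP moves it.

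Library totals among the 12 ran from 15300374 to 34178417 counts. Across the 15775 genes that passed the filter on low counts, the ratio was called different in 112 genes (0.710%; edgeR's quasi-likelihood F test with pairs as blocks, Benjamini-Hochberg adjusted p under 0.05). It was higher in tumor in 92 genes (0.583%) and lower in 20 (0.127%), and 1511 genes had an unadjusted p under 0.05. The median log2 difference, tumor minus control, was 0.0066, with a median standard error of 0.14. Without the pairing of input and IP by number, the same 12 libraries gave 10 calls, 6 higher and 4 lower. A limma fit on the log2 ratios of the pairs, which keeps the pairing, gave 20 calls, 17 higher and 3 lower, and 15 of the 20 were among the 112. By contrast, the tumor moved 7486 of 15342 genes (48.8%) in the IP and 6882 of 14975 (46.0%) in the input when each fraction was compared by itself, so that calls within a fraction far outnumbered calls on the ratio.

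All 3 tumor pairs lay above all 3 control pairs in 1417 genes (8.98%) and below them in 962 (6.10%). In each of the 92 genes called higher and the 20 called lower, the tumor and control pairs did not overlap. The calls were made on these same pairs, so that this largely follows from the call and adds no separate support. Of the 92, the mean ratio was below 0 in both conditions in 48, crossed from below to above 0 in 32 and was above 0 in both in 12. Of the 20 called lower, 12 crossed from above to below 0 and 8 stayed above 0.

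**Figure D1:**
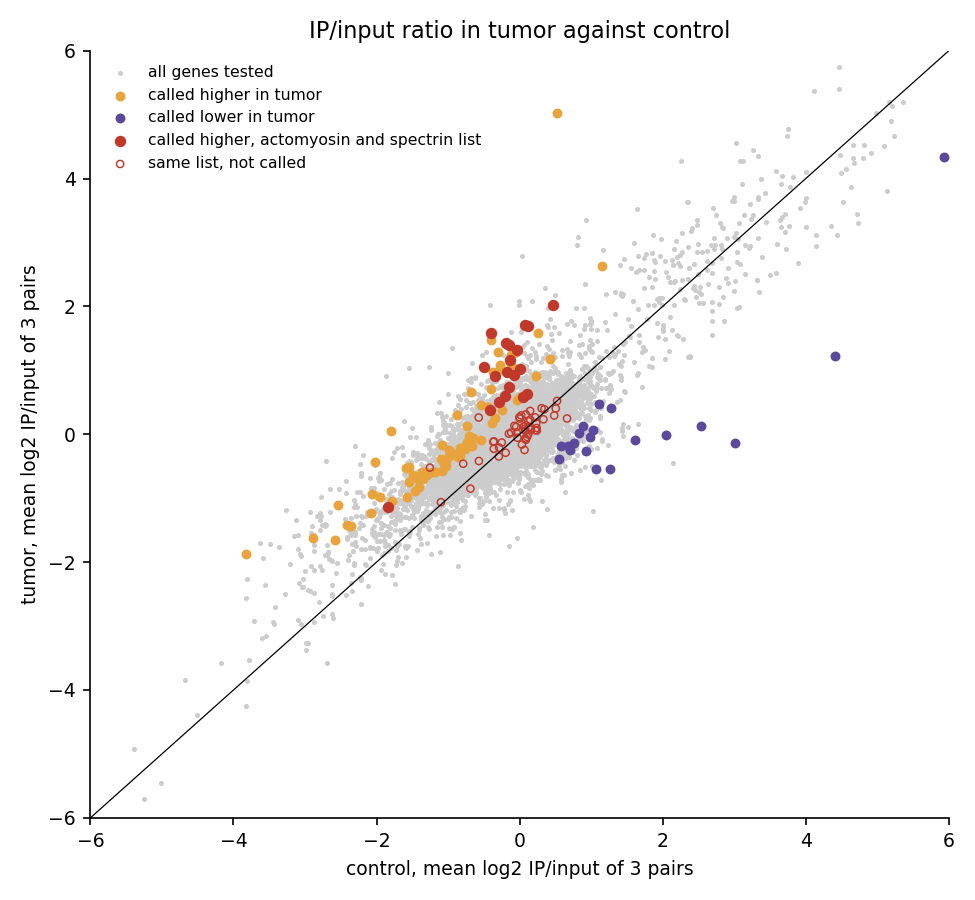
Mean log2 IP/input of the 3 tumor pairs (vertical axis) against that of the 3 control pairs (horizontal axis) for all genes tested; the line marks equal ratios and 14 genes lie outside the axes. The genes of the actomyosin and spectrin list called higher (filled red) lie above the line, which follows from their call. The uncalled members of the same list (open red) lie on both sides of it, with differences from -0.42 to 0.84.

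Genes of the actin-based motor and membrane skeleton made up the main named group. Nonmuscle myosins pull on actin filaments, spectrins form the lattice under the plasma membrane that actin and ankyrins tie together, and in neurons both shape axons, spines and the growth of processes. Of 71 genes in a list of actomyosin and spectrin genes, 70 were tested. The ratio rose in 20 and fell in 0, against 0.583% and 0.127% of all genes. Like the other lists here, this list was chosen with earlier results of these data known, so that its counts describe it and test nothing. The median log2 difference over the 70 was 0.14, with quartiles of -0.05 and 0.78, and the differences of its uncalled members ran from -0.42 to 0.84. Without the pairing by number 2 of its genes were called higher, and with limma on the pair ratios 8 were. The called genes ranged from 0.53 to 1.98. Their mean ratio was below 0 in 14 of 20 in control, and above 0 in 19 of 20 in tumor.

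Myh9, the heavy chain of nonmuscle myosin IIA (chromosome 15, 77760585 to 77842175, GRCm38), had the highest difference among the genes ranked. It was measured at 98.3, 95.3 and 90.1 counts scaled to library size (CPM, as edgeR gives it) in control input and at 77.2, 67.5 and 71.3 CPM in control IP. In tumor it was measured at 197, 133 and 164 CPM in input and at 458, 520 and 489 CPM in IP. Every control pair thus had less Myh9 in the IP than in the input and every tumor pair had more. The log2 ratio was -0.35, -0.50 and -0.34 in control pairs 1 to 3 and 1.22, 1.97 and 1.58 in tumor pairs. The difference was 1.98 ± 0.15 (log2, SE; adjusted p = 1.28e-07), a ratio 3.95 times as high in tumor. Between conditions Myh9 rose by 2.75 ± 0.10 in the IP and by 0.81 ± 0.15 in the input.

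Myh10, the heavy chain of nonmuscle myosin IIB and the form most common in neurons (chromosome 11, 68691915 to 68816626), was at 332, 349 and 333 CPM in the control input and 388, 337 and 342 CPM in control IP. The tumor libraries held 177, 257 and 299 CPM in input and 459, 1081 and 957 CPM in IP. The control pairs were near 0 at 0.22, -0.05 and 0.04, and the tumor pairs were at 1.37, 2.07 and 1.68, a log2 difference of 1.64 ± 0.15 (adjusted p = 1.40e-06). Myh14, nonmuscle myosin IIC, differed by 1.30 ± 0.13. Myh11, the smooth muscle myosin, differed by 1.84 ± 0.24 at a lower mean of 7.0 CPM. The processive cargo motors Myo5a and Myo6 differed by 1.02 ± 0.14 and 0.80 ± 0.11.

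Both chains of the spectrin tetramer moved the same way. Sptan1, the α-spectrin of non-erythroid cells (chromosome 2, 29965560 to 30031451), was at 1956, 1736 and 1750 CPM in the control input and 1417, 1160 and 1301 CPM in control IP. With a tumor, the level was 1076, 1413 and 1454 CPM in input and at 1808, 3058 and 3532 CPM in IP. Its log2 ratio was -0.46, -0.58 and -0.43 in control and 0.75, 1.11 and 1.28 in tumor, so that the groups lay on opposite sides of 0, and the difference was 1.54 ± 0.15. Sptbn1, the main β-spectrin of brain (chromosome 11, 30099395 to 30268384), was at 1630, 1673 and 1672 CPM in the control input and at 1482, 1360 and 1522 CPM in control IP. In the tumor group it was at 785, 1119 and 1312 CPM in input and at 1808, 3370 and 3629 CPM in IP. The difference for Sptbn1 was 1.61 ± 0.14 (adjusted p = 8.66e-07). Sptb differed by 1.25 and Sptbn4, a β-spectrin of nodes of Ranvier and axon initial segments, by 0.80. Sptb overlaps the tested gene Plekhg3 and the sources used here do not give the use of strand in counting, so that reads of the pair may not be told apart.

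**Figure D2:**
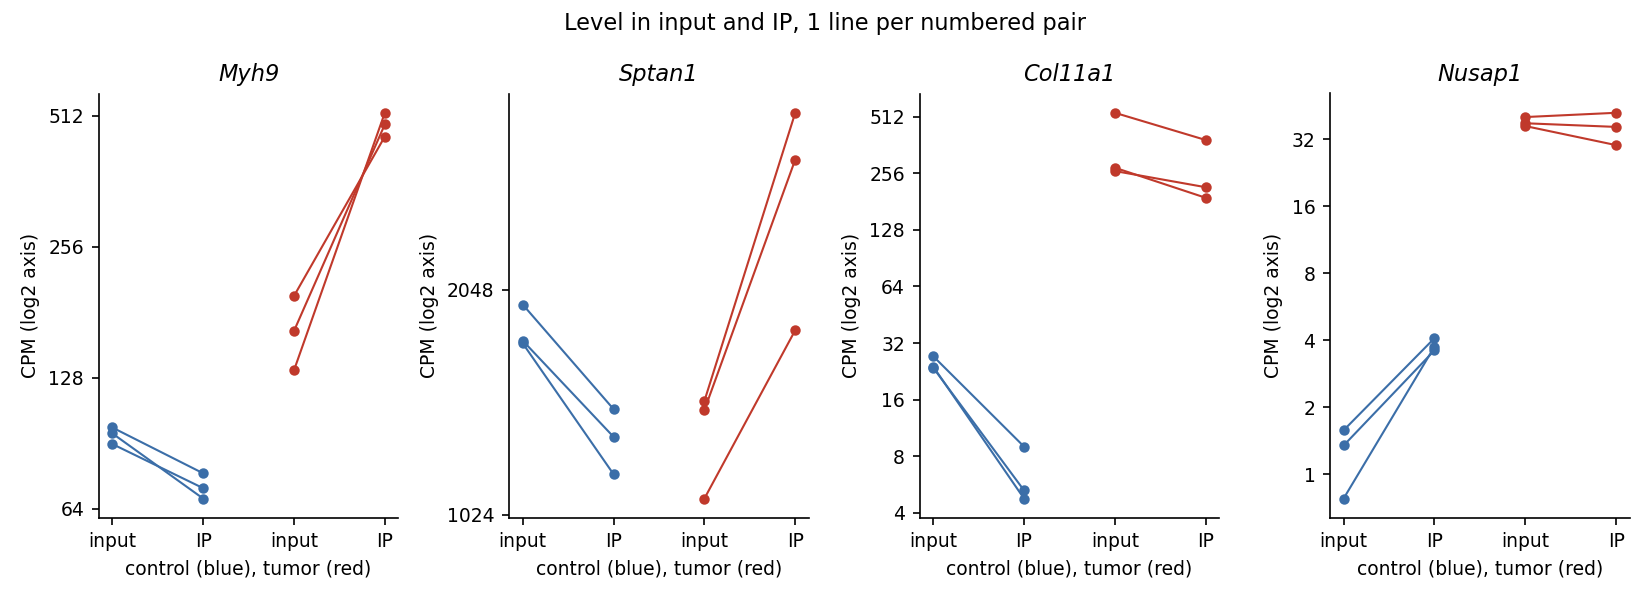
CPM (log2 axis) of Myh9, Sptan1, Col11a1 and Nusap1 in input and IP, with a line for each numbered pair, control in blue and tumor in red. For Myh9 and Sptan1 the control lines fall from input to IP and the tumor lines rise; for Col11a1 the control lines fall more steeply than the tumor lines; for Nusap1 the control lines rise, from 0.778 to 1.58 CPM in input.

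Called genes that bind or crosslink actin included Limch1, an activator of nonmuscle myosin II, at 1.58 ± 0.14, and Ppp1r9a (neurabin, an actin-binding scaffold of spines) at 1.55 ± 0.14. Dbn1 (drebrin, which binds actin in dendritic spines) differed by 1.54 ± 0.15. Limch1 was level between conditions in input, at 164, 175 and 177 CPM in control and 167, 183 and 164 CPM in tumor. In the IP it went from 168, 189 and 206 CPM to 430, 689 and 579 CPM. Ppp1r9a already had more in the IP than in the input in control, with log2 ratios of 0.54, 0.41 and 0.46, and tumor pairs were at 1.73, 2.29 and 2.05. Dbn1 was at -0.30, -0.17 and 0.05 in control and 0.96, 1.64 and 1.57 in tumor. The crosslinkers Actn2 (1.15), Plec (0.88), Flna (0.70) and Actn1 (0.53), the actin-binding Lmo7 (1.00) and Svil (0.80), and the spectrin-binding ankyrin Ank2 (0.53) were called as well. Of 16 alternatives, Actn2 passed the threshold in 15, Plec and Lmo7 in 14, Svil in 13, Flna in 9, Ank2 in 7 and Actn1 in 5. The call of Actn1 was lost when any 1 pair was left out. Flna had ratios below 0 in both conditions, with -2.27, -1.41 and -1.83 in control and -1.07, -1.25 and -1.11 in tumor.

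The 50 members not called had a median ratio of 0.07 in both conditions. They include Actb, β-actin, which rose in both fractions and had a difference of -0.31 ± 0.14 (adjusted p = 0.482). Its log2 ratio was 0.14, -0.07 and 0.14 in control and -0.32, -0.10 and -0.31 in tumor. Tmod2, a capping protein of neuronal actin filaments, differed by 0.05 ± 0.13. Other uncalled members, chosen after their values were seen, were the tropomyosin Tpm1 at -0.18, the capping protein Capzb at -0.42, the myosin light chains Myl6 at -0.10 and Myl12b at -0.02, and the adducin Add1 at -0.15. Among the large proteins the ankyrin Ank3 (0.22), the talins Tln1 (0.14) and Tln2 (0.01) and the myosins Myo9a (0.24) and Myo18a (0.27) were not called either. A length of gene on the chromosome could be had for all 70 from RefSeq, with a median of 70.2 kb, and the median of the 20 called was 108.8 kb, against 23.8 kb over the tested genes found there.

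The levels behind these ratios can be read from the sum over the 20 called genes. These genes were picked by their ratio in the same 12 libraries, so that a high sum in tumor IP follows in part from that choice. Together they came to 9872, 9685 and 9685 CPM in the control input and 9394, 8818 and 9083 CPM in control IP. In tumor input they came to 5694, 7334 and 7968 CPM and in tumor IP to 11039, 18734 and 19184 CPM. Tumor pair 1 was the lowest of its group in both fractions, and every tumor IP library was above the other 9 of the 12. By gene, 13 of the 20 were called higher in tumor IP, of which 3 were also higher in tumor input, 4 lower and 6 not called. The other 7 were lower in tumor input with no call in the IP. The AZD8055 pairs, of another library set, had a median ratio of -0.28 over these genes, beside -0.14 in control and 1.00 in tumor, and in 19 of 20 genes all 3 AZD8055 pairs lay below all 3 tumor pairs. Library set and treatment cannot be told apart in that last count, which also covers only genes picked for a higher ratio in tumor.

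**Figure D3:**
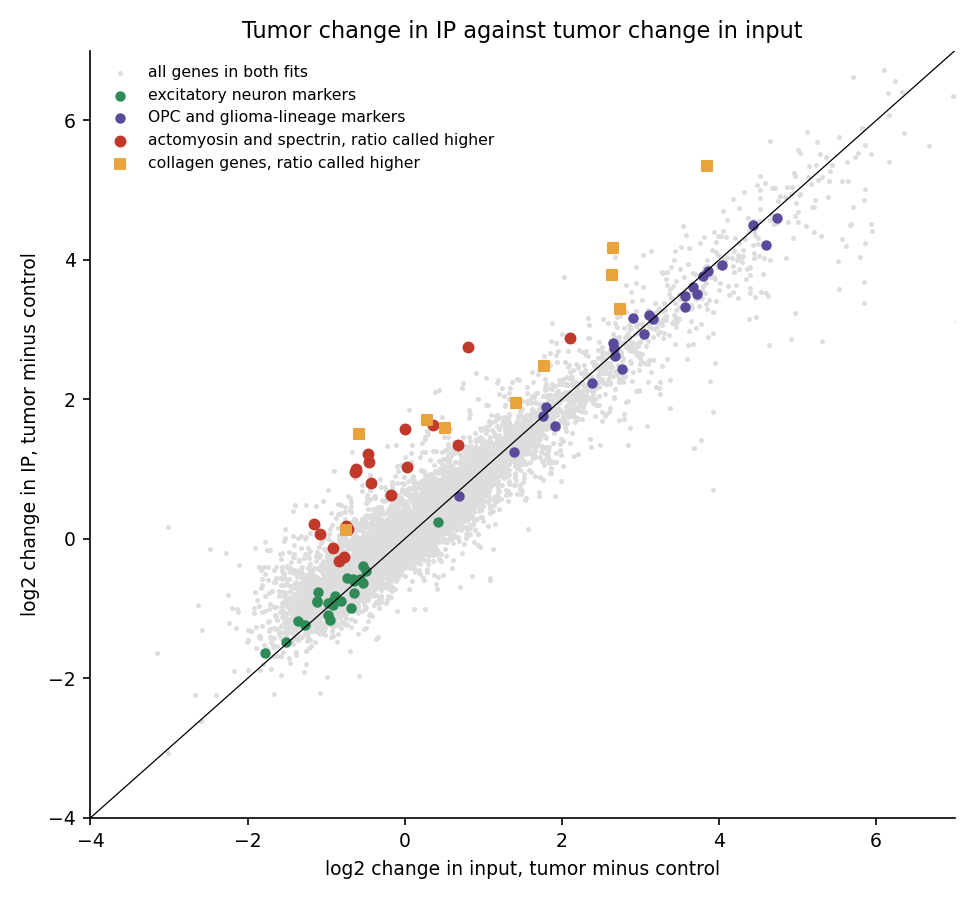
Log2 change from control to tumor in the IP (vertical axis) against the change in the input (horizontal axis), with the line of equal change. The actomyosin and spectrin genes (red) and collagen genes (orange squares) shown are only those called higher in ratio. Height above the line is that ratio difference, so that their place above it follows from the choice. Excitatory neuron markers (green, lower left) and markers of the oligodendrocyte precursor and glioma lineage (purple, upper right) are shown whether called or not and lie along the line.

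Large linker proteins outside that list were also among the genes called higher. Dst (dystonin, which links actin, microtubules and intermediate filaments; chromosome 1, 33907888 to 34308662) was at 846, 889 and 915 CPM in the control input and at 766, 646 and 738 CPM in control IP. The tumor values were 599, 773 and 883 CPM in input and 1783, 1897 and 1780 CPM in IP. The difference was 1.60 ± 0.15 (adjusted p = 1.40e-06), and the gene overlaps Bend6. Its relative Macf1 differed by 1.34 ± 0.12, Syne2, which ties the nucleus to the cytoskeleton, by 1.29 ± 0.11, and Mical1, an enzyme that takes actin filaments apart, by 1.32 ± 0.20. These 3 were chosen after their values were seen. Gtl3, an older symbol of the ciliary gene Cfap20, ranked second on the higher side, at 1.89 ± 0.12. It was at 32.3, 28.7 and 30.1 CPM in the control input, 24.8, 21.1 and 22.9 CPM in control IP, 12.8, 17.6 and 18.4 CPM in tumor input and 36.8, 50.9 and 48.2 CPM in tumor IP. Gtl3 therefore fell in the input and rose in the IP.

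**Figure D4:**
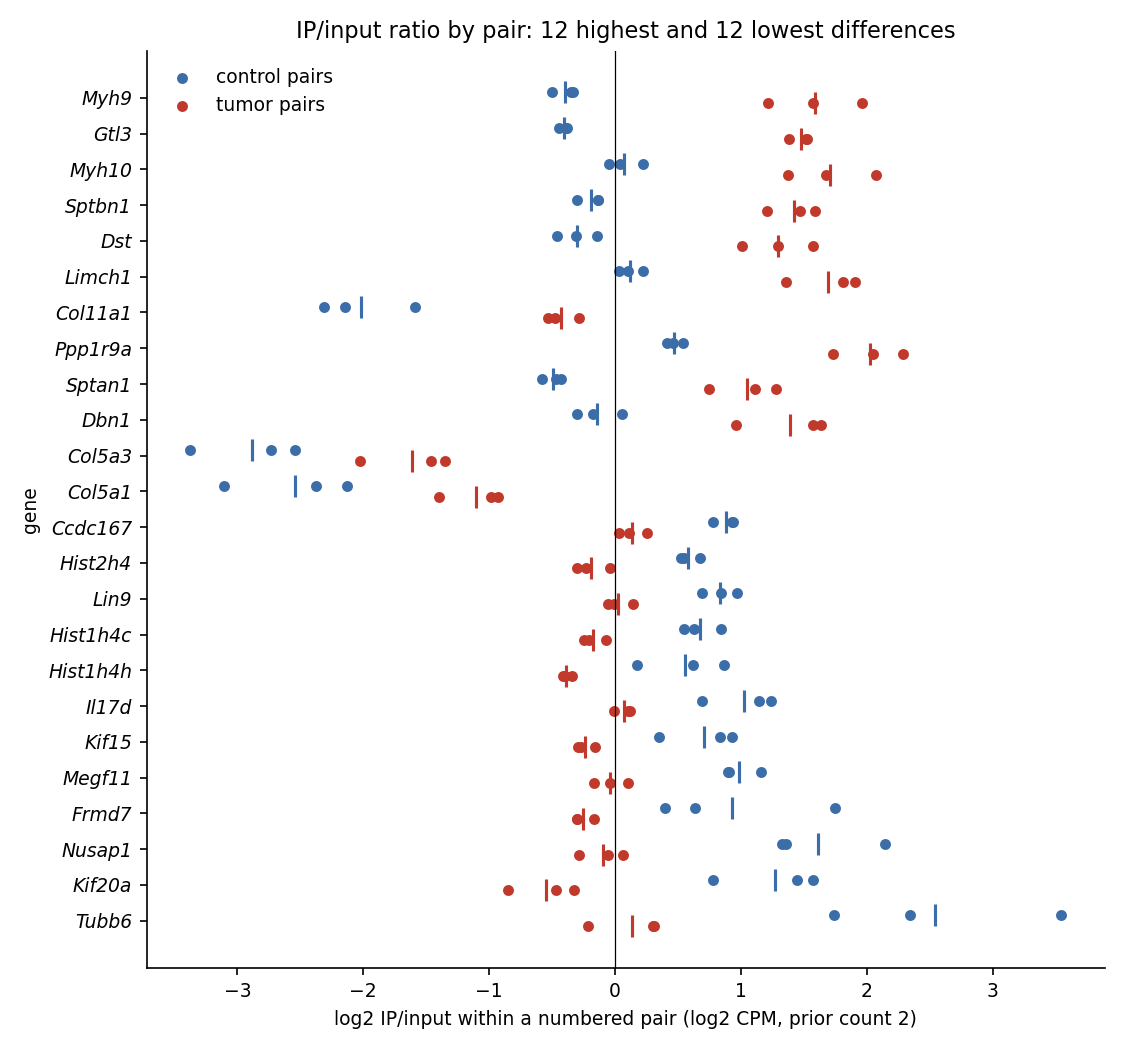
Log2 IP/input in each control (blue) and tumor (red) pair for the 12 ranked genes with the highest and the 12 with the lowest difference; ticks mark the mean of 3 pairs. Genes were ranked only where the groups did not overlap, and Col11a1, Col5a3 and Col5a1 stay below 0 in all 6 pairs.

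Collagen genes were 3 of the 12 genes ranked highest. Fibrillar collagens such as types V and XI and the basement membrane proteins are secreted by vascular, meningeal and glial cells, and gliomas lay down matrix of their own. In the list of matrix genes 38 were tested, and the ratio rose in 6 and fell in 0, beside 0.583% and 0.127% of all genes, with a median of 0.13. The called genes were Col11a1, Col5a1, Col6a1 (0.91), Col9a3 (0.59), Col4a1 (0.57) and Hspg2 (perlecan, a basement membrane proteoglycan, 0.87). Over all 44 collagen genes, a group formed after the values were seen, 10 were higher and 0 lower, beside the same shares, the median was 0.49 and 38 were above 0, where 8089 of all 15775 genes were above 0. Their ratio was below 0 in control in all 10 called genes and remained below 0 in tumor in all 10.

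Col11a1, a chain of type XI collagen (chromosome 3, 114030479 to 114220756), was at 27.3, 23.7 and 24.0 CPM in the control input and 9.01, 5.27 and 4.77 CPM in control IP. Tumor libraries were at 536, 263 and 274 CPM in input and 384, 216 and 189 CPM in IP. It rose in both fractions, by 3.85 ± 0.30 in input and 5.35 ± 0.36 in IP, and the IP held less of it than the input in every pair. Its log2 ratio was -1.59, -2.15 and -2.31 in control and -0.48, -0.29 and -0.53 in tumor, a difference of 1.57 ± 0.15. Col5a1 did not pass the test in input, at 24.4, 19.3 and 21.8 CPM in control and 28.5, 29.4 and 21.5 CPM in tumor, and in the IP it went from 2.75, 4.33 and 4.12 to 14.3, 11.1 and 11.3 CPM. Its ratio differed by 1.46 ± 0.20. Col5a3 differed by 1.50 ± 0.29, from control IP libraries of 13, 15 and 13 counts. Among the proteoglycans of the perineuronal and glioma matrix, Ncan differed by -0.13 (adjusted p = 0.786), and Vcan, chosen after its values were seen, by 0.02. Other proteoglycans of this kind are not given here.

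The number of collagens called moved with single pairs. It was 0 without the pairing by number and 0 with limma on the pair ratios, 3 without tumor pair 1, 4 without tumor pair 3, 5 without control pair 1 and 6 without control pair 3, of 10 with all pairs. Control pair 1 had the lowest ratio of the control pairs for Col5a1 (-3.11), Col5a3 (-3.38), Col6a1 (-3.21) and Flna. The endothelial and pericyte markers, which can share a source with collagens, had a median ratio of -0.44 ± 0.19 in control (SD, n = 3 pairs) and -0.37 ± 0.08 in tumor. Summed, they came to 1123 to 1218 CPM in the input of controls and 923 to 1077 in their IP, beside 1668 to 1912 in tumor input and 1384 to 1616 in tumor IP, and 0 of 28 were called. Their part in the collagen result was not tested.

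The 20 genes called lower in tumor were mainly genes that rose in the tumor. In 13 both fractions rose, in 5 the input rose with no call in the IP, and in 2 the input rose and the IP fell. Nusap1, a spindle protein (chromosome 2, 119618298 to 119650165), was at 1.35, 0.778 and 1.58 CPM in the control input and 3.60, 3.74 and 4.09 CPM in control IP, from 14 to 26 counts in the input libraries. In the tumor group it was at 36.7, 40.3 and 37.8 CPM in input and 30.1, 42.1 and 36.4 CPM in IP. The log2 ratio was 1.36, 2.14 and 1.33 in control and -0.28, 0.06 and -0.05 in tumor, and the difference was -1.72 ± 0.22 (adjusted p = 1.09e-04). Nusap1 overlaps Oip5.

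Kif20a and Kif15, kinesins of cell division, differed by -1.83 ± 0.26 and -0.98 ± 0.23, and Kif20a overlaps Cdc23 and Brd8. Tubb6, a β-tubulin, differed by -2.29 ± 0.28, from 35, 7 and 17 counts in control input. In proliferation genes as a list, 2 of 30 were lower (Nusap1 and Kif15), beside 0.127% of all genes, 0 were higher and the median was -0.06. Kif15 passed the threshold in 3 of 16 alternatives. Mki67, the proliferation marker, differed by -0.40 ± 0.14 (adjusted p = 0.307), and Top2a by -0.04. Lin9, a subunit of the complex that switches on cell cycle genes, was among the 12 ranked lowest too, at -0.82 ± 0.16. Megf11, a receptor-like protein with EGF repeats, was better counted: it was at 25.4, 25.1 and 24.9 CPM in the control input and 56.7, 46.7 and 46.8 CPM in control IP. In tumor brains the level was 152, 123 and 114 CPM in input and at 135, 132 and 111 CPM in IP. The control pairs were at 1.16, 0.90 and 0.91 and the tumor pairs at -0.17, 0.10 and -0.04, a difference of -1.03 ± 0.12 (adjusted p = 2.22e-05). Frmd7 (-1.10), Il17d (-0.95) and Ccdc167 (-0.75) complete the 12 ranked lowest, apart from the histones. The 20 genes called lower also include genes not among these 12, with differences of up to 7.45 in size. Of the 20, 5 had a mean under 10 CPM.

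Histone genes leaned the same way. Replication-dependent histones package new DNA and their messages end in a stem-loop in place of a poly(A) tail. Of 57 tested, 3 were lower, 0 higher, and in 26 all tumor pairs lay below all control pairs, beside 6.10% of all genes. The median was -0.40 and 7 were above 0, and 0 were called without the pairing by number or with limma on the pair ratios. The 3 called encode histone H4: Hist1h4h (-0.92 ± 0.15), Hist1h4c (-0.85 ± 0.12) and Hist2h4 (-0.78 ± 0.17). Hist1h4c was at 23.5, 18.2 and 17.2 CPM in the control input, 34.5, 28.1 and 30.9 CPM in control IP, 35.6, 39.1 and 37.6 CPM in tumor input and 33.8, 32.9 and 32.6 CPM in tumor IP. It rose in tumor input by 0.94 ± 0.14 and had no call in the IP. H4 genes are near-identical in coding sequence, so that reads may be split among copies and single members are uncertain.

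**Figure D5:**
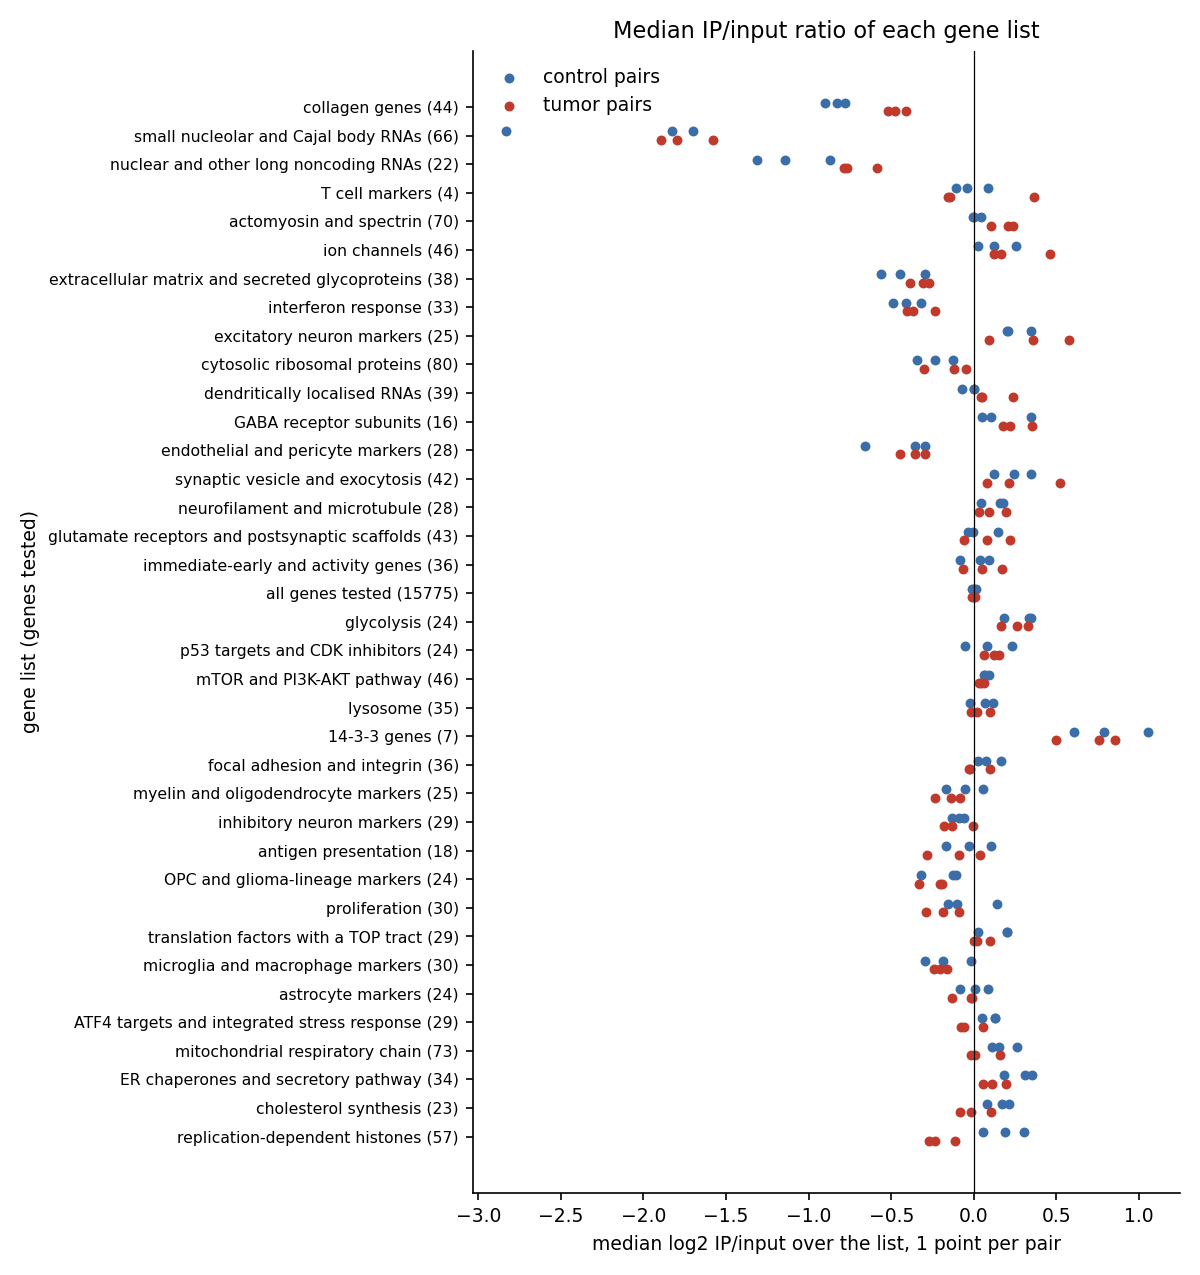
Median log2 IP/input of each gene list in each control (blue) and tumor (red) pair, ordered by the median difference. The histone points do not overlap, with control above tumor, and the collagen points do not overlap, with tumor above control; the excitatory neuron points overlap, and all genes tested lie at 0.

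Noncoding and nuclear RNAs had the lowest ratios of any list, and the list of long noncoding and nuclear RNAs was nearer to 0 in tumor. Such RNAs are mostly not translated. Over 22 long noncoding and nuclear RNAs, the mean of the pair medians was -1.11 ± 0.22 in control and -0.71 ± 0.11 in tumor (SD, n = 3 pairs), 21 of 22 differences were above 0, where 8089 of all 15775 were, and 2 were called higher, beside 0.583% of all genes. These were Rpph1, the RNA of RNase P, at 0.85 ± 0.17, and Rian, an imprinted RNA of the Dlk1-Dio3 locus, at 0.58 ± 0.13, which overlaps several small RNA genes and Rtl1. Rian passed the threshold in 8 of 16 alternatives. Rpph1 had log2 ratios of -1.94, -1.30 and -1.21 in control and -0.61, -0.74 and -0.56 in tumor. Malat1, a nuclear RNA, had -1.60, -0.77 and -1.19 in control and -0.26, -0.39 and -0.78 in tumor; its groups overlapped, and its difference was 0.71 ± 0.20 (adjusted p = 0.142). Control pair 1 was the lowest for all of Rpph1, Malat1 and Meg3. Of 66 small nucleolar RNAs 0 were called, 50 were above 0 and the median was 0.49. Their pair medians were -2.83, -1.70 and -1.83 in control and -1.80, -1.89 and -1.58 in tumor. The groups thus overlapped, and only control pair 1 lay below all tumor pairs.

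Markers of cell types were used to ask whether the IP separated neurons from other cells alike in control and tumor. Of 197 marker genes 188 were tested and 0 had a called difference in ratio, beside 0.710% of all genes, a share at which few calls could arise in a list of this size. By the same test 9 had an unadjusted p under 0.05, where 1511 of all 15775 genes did, and the median was -0.03. Excitatory neuron markers had a median log2 ratio of 0.25 ± 0.08 in control and 0.34 ± 0.24 in tumor. Astrocyte markers were at 0.00 ± 0.08 and -0.06 ± 0.07, myelin and oligodendrocyte markers at -0.06 ± 0.11 and -0.15 ± 0.08, inhibitory neuron markers at -0.09 ± 0.04 and -0.11 ± 0.09, and microglia and macrophage markers at -0.16 ± 0.14 and -0.20 ± 0.04. Markers of the oligodendrocyte precursor and glioma lineage were at -0.19 ± 0.12 and -0.24 ± 0.08. Endothelial and pericyte markers were the non-neuronal list furthest from 0, at -0.44 ± 0.19 and -0.37 ± 0.08. Markers of non-neuronal cells were thus present in the control and tumor IP and, outside the endothelial list, at shares near those of the input. A ratio in these pairs can therefore not be assigned to neurons alone. Of the 12 T cell markers only 4 passed the filter on low counts, with a median difference of 0.14. In the AZD8055 pairs the excitatory list was at 1.16 and the astrocyte list at -2.18.

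Camk2a, whose promoter drives Cre, was at 927, 1264 and 960 CPM in the control input and 1891, 1629 and 1598 CPM in control IP. In the tumor group it was at 228, 356 and 716 CPM in input and 564, 799 and 828 CPM in IP. It was higher in the IP in all 6 pairs, and the ratio differed by 0.19 ± 0.21 (adjusted p = 0.819). The pair ratios of Camk2a had SDs of 0.33 in control and 0.60 in tumor. Pdgfra, a receptor of oligodendrocyte precursors and of many gliomas, was at 130, 89.6 and 86.5 CPM in the control input and 3282, 2216 and 2623 CPM in tumor input. In the IP it was at 121, 85.7 and 79.3 CPM in control and 2652, 1997 and 2367 CPM in tumor. Its ratio differed by -0.11 ± 0.13 (adjusted p = 0.834). Rpl22, which carries the tag, differed by 0.08, Slc17a7 by 0.12, Gad1 by -0.08, Aqp4 by -0.04, Mbp by 0.01, Olig2 by -0.04, C1qa by -0.05 and Cldn5 by 0.12, and none of these was called.

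Summed over the excitatory list, control input held 6850 to 7031 CPM and control IP 7828 to 9219, beside 2562 to 4551 in tumor input and 3819 to 5062 in tumor IP. Summed over the precursor and glioma list it was 1242 to 1482, 1105 to 1296, 9970 to 12145 and 8343 to 9370 CPM in the same order. In bulk RNA, fewer cells of a type and less RNA per cell cannot be told apart. These marker levels moved with the tumor in both fractions, and their part in the ratios of the actomyosin, collagen and histone genes was not tested.

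Neuronal and metabolic lists with 0 called genes are given by their size and median, since 0 is near the background of 0.710% in lists this small. These were synaptic vesicle genes (42 tested, median 0.07), glutamate receptors and scaffolds (43, 0.06), GABA receptor subunits (16, 0.08), ion channels (46, 0.13), dendritically localised RNAs (39, 0.09) and neurofilament and microtubule genes (28, 0.06). The mTOR and PI3K-AKT pathway (46, -0.01), ATF4 targets (29, -0.08), translation factors with a TOP tract (29, -0.07), glycolysis (24, 0.01), lysosome (35, -0.03), p53 targets and CDK inhibitors (24, 0.00), 14-3-3 genes (7, -0.03), interferon response (33, 0.11) and antigen presentation (18, -0.05) also had 0. Some lists with 0 calls had most members on 1 side. Ion channels were above 0 in 38 of 46, synaptic vesicle genes in 30 of 42, GABA receptor subunits in 12 of 16 and the translation factors in 8 of 29. Cholesterol synthesis was above 0 in 2 of 23 (median -0.20), endoplasmic reticulum chaperones and secretory genes in 2 of 34 (median -0.14) and the respiratory chain in 9 of 73 (median -0.11), where 8089 of all 15775 genes were above 0. Hsp90b1, a chaperone of the endoplasmic reticulum, had -0.24.

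Single genes were called in some other lists. Npas4, an activity-induced transcription factor of neurons, was the 1 of 36 immediate-early genes called higher (0.95 ± 0.18), with CPM of 39.5, 32.5 and 18.2 in control input, 22.4, 16.9 and 6.45 in control IP, 2.34, 137 and 31.5 in tumor input and 1.91, 161 and 23.2 in tumor IP. Its level in tumor spread widely between pairs, and its call was lost without control pair 3 and without tumor pair 2. Pxn (paxillin, 0.71) and Itga8 (integrin α8, 0.53) were called higher among 36 focal adhesion genes, and Rps29 (0.62) among 80 cytosolic ribosomal protein genes, whose median was 0.09, beside 0.583% of all genes. Of 16 alternatives Pxn passed the threshold in 9, Rps29 in 7 and Itga8 in 4, and Itga8 was lost when any 1 pair was left out.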

How the data were processed

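The deposited table held raw counts for 23420 gene symbols in 18 libraries, which the authors had not scaled. STAR, DESeq2 and the mm10 build appear in the submitters' processing notes. The sources used here do not give versions, the counting tool, the annotation or the use of strand. Coordinates came from a RefSeq table of GRCm38, in which 21571 symbols (92.1%) were found. RNA was purified on RNeasy columns and made into libraries with a NEBNext directional kit, per the labels.

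The counts were scaled by TMM, filtered by filterByExpr and fitted in edgeR 4.0.16 (R 4.3.3) with a block for each of the 6 pairs and an IP effect per condition. The contrast was the IP effect in tumor minus that in control. Errors of log2 differences are standard errors from the fit. The fit draws the variance of each gene toward that of other genes, so that an error can be smaller or larger than its own pairs would give. Aqp4, for example, had pair SDs of 0.03 in control and 0.07 in tumor and a standard error of 0.11. Ratios per pair are differences of log2 CPM with a prior count of 2. Gene length plays no part, so that levels of different genes are not compared. Tumor and control were also compared within each fraction in fits of 6 libraries, which share all their libraries with the ratio. The script was tested on simulated data.

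Genes were named if called, if their mean reached 10 CPM and if control and tumor pairs did not overlap, ranked by difference: the 12 highest and 12 lowest, without Gm, Rik or pseudogene names. From each of 36 lists up to 4 called members and the 2 most abundant uncalled ones were added, and 11 genes were fixed: Camk2a, Slc17a7, Gad1, Aqp4, Mbp, Pdgfra, Olig2, Mki67, C1qa, Cldn5 and Rpl22. The report names more called members where it counts a list. Members and lists were chosen with earlier results of these data known, and the collagen list was added after the values of this comparison were seen; lists are described by counts and medians with no test. Some called or listed genes are not reported here by name.

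Same-number input and IP libraries deviated together from their group means over 15775 genes (r = 0.19 to 0.24 in control, 0.50 to 0.74 in tumor). Each input matched its own number best. The highest r with another number was 0.17 and 0.24 for tumor inputs 2 and 3, and -0.53 to -0.008 for the other inputs. Deviations from a mean of 3 libraries are tied to one another, so that this match is a weak check. The labels do not say whether input and IP of a number came from the same sample, so that the pairing rests on this match. No 2 libraries of a group agreed within sampling noise. Counts without unique molecular identifiers are not independent molecules. Alternatives were other scalings and filters, DESeq2 1.42.0, limma 3.58.1 (voom, and on pair ratios), the fit without pairs, a fit of all 18 libraries and leaving out each pair. Figures were drawn with matplotlib 3.10.9.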

Additional observations from a re-analysis of the deposited data

Results flagged for a closer look

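The IP/input ratio differed between tumor and control, by the contrast of both IP effects (edgeR, adjusted p under 0.05), in the 24 ranked genes. It was higher in tumor, on the log2 scale, for Myh9 (1.98), Gtl3 (1.89), Myh10 (1.64), Sptbn1 (1.61), Dst (1.60), Limch1 (1.58), Col11a1 (1.57), Ppp1r9a (1.55), Sptan1 (1.54), Dbn1 (1.54), Col5a3 (1.50) and Col5a1 (1.46). It was lower for Ccdc167 (-0.75), Hist2h4 (-0.78), Lin9 (-0.82), Hist1h4c (-0.85), Hist1h4h (-0.92), Il17d (-0.95), Kif15 (-0.98), Megf11 (-1.03), Frmd7 (-1.10), Nusap1 (-1.72), Kif20a (-1.83) and Tubb6 (-2.29). Of the 16 alternatives, Myh9, Gtl3 and Limch1 passed the threshold in all 16. Hist2h4 passed it in 7 and Kif15 in 3, the fewest of the 24. Hist2h4 was lost without each pair in turn except control pair 2, and Kif15 without each except control pair 1. Lin9 was lost without control pair 3 and without tumor pair 1. Col5a3 passed it in 10 and was lost without control pair 1, without tumor pair 1 and without tumor pair 3, and Frmd7 passed it in 11 and was lost without control pair 3 and without tumor pair 1. All 24 kept their direction in every alternative.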

How the results depend on the processing

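The 112 calls (92 higher, 20 lower) became 298 (227 and 71) with no filter on low counts, 20 (17 and 3) with limma on the pair ratios, 67 (51 and 16) with all 18 libraries in the fit and 10 (6 and 4) with no replicate block. A mean of at least 5 CPM left 13 lower. Leaving out a pair gave 62 to 169 calls, 50 to 150 higher and 12 to 35 lower: 62 without control pair 3, 64 without tumor pair 1 and 169 without control pair 2. Other scalings gave 106 to 126 calls, DESeq2 104 and voom 109. In input, leaving out a library gave 4457 to 6951 calls, the lowest without control 2; in IP 5614 to 7459. Of the actomyosin list 16 to 21 genes were higher in the alternatives except limma on pair ratios (8) and no replicate block (2), and 1 was called lower with no filter and without tumor pair 2. Of the matrix list 3 to 7 were higher, except 0 in the same 2 fits. Cell type markers gave 0 calls throughout. The causes were not tested. With 3 pairs a side and a median standard error of 0.14, small differences in ratio were not detectable, and Tubb6, Kif20a and Nusap1 rest on few counts in control input.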
